A study of Rattus norvegicus with 12 samples.

Results

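When a kidney from a brain dead donor is transplanted, it has met 2 insults, and the question here was whether its transcript levels 1 h after transplantation equalled, exceeded or fell short of what both insults gave singly. The members are all 12 arrays of the series of 12, in 4 groups of 3, and the contrast was computed for each of 18478 features, of which 9653 were named genes and 8825 were probes left without a single gene symbol. For each feature, the log2 difference of brain dead donor kidneys from normal kidneys (brain death alone) and the log2 difference of living donor grafts from normal kidneys (transplantation alone) were added to the normal level. This level of the sum was then taken from the observed level in brain dead donor grafts. The remainder is called the interaction: below 0 the graft stood below the sum, above 0 it stood above it. Since log2 values were added, the sum stands for a product of the single fold changes.

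All animals were inbred male Lewis rats, so that grafts passed between genetically alike animals. Normal kidneys had met neither insult. Kidneys of brain dead donors were taken at 0 h, before transplantation, from rats whose intracranial pressure had been raised stepwise to herniation of the brain stem and that were ventilated for 6 h. Living donor grafts and brain dead donor grafts were left kidneys collected 1 h after orthotopic transplantation into a recipient that lost its own right kidney in the same operation, with an operative ischemia of 30 min. A ventilated group with an intact brain was not part of the design, so effects of ventilation and of brain death cannot be told apart. Transplantation likewise stands for surgery, ischemia and 1 h of reperfusion together. Each sample was hybridised against a mixture of RNA from 3 normal kidneys, and a level given here is the log2 ratio to that mixture.

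Brain death floods the circulation with catecholamines and then with inflammatory mediators while the kidney is still perfused by the donor. Ischemia and reperfusion act on the organ directly, through lack of oxygen, oxidants and misfolded protein. Both kinds of injury are known to use the same fast programs: immediate early genes, which need no new protein for their transcription, the NF-kB program with its inhibitor Nfkbia as negative feedback, heat shock chaperones, and the integrated stress response, in which the factor Atf4 drives Ddit3 and Ppp1r15a. A program that is already near its upper limit after the first insult leaves less room for the second, which is called saturation; a response larger than the sum is called synergy.

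The median SD over named genes within a group was 0.086 for normal kidneys, 0.088 for brain dead donor kidneys at 0 h, 0.092 for living donor grafts and 0.10 for brain dead donor grafts (log2, n = 3 each). Graft 21 of the brain dead donors stood somewhat apart, with a mean correlation of 0.851 with the other 2 grafts of its group. The other 2 brain dead donor grafts, 23 and 27, correlated more closely with brain dead donor kidneys at 0 h (0.909 and 0.907) than with their own group (0.886 and 0.884). The deposited values end at a ratio of 100, a log2 ratio of 6.64; the highest level among the 61 genes chosen for description was 4.55, and the highest level of the sum was 6.34, for Atf3. In bulk kidney, fewer cells of a type and less RNA per cell cannot be told apart, and a ratio to normal kidney shows the change of a marker but not its presence.

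No feature passed the test of the interaction, that is 0% of those tested at an adjusted p of 0.05 (limma, Benjamini-Hochberg over all 18478 features). At an unadjusted p of 0.05, 964 features (5.22%) differed from the sum, of which 551 (2.98%) lay below it and 413 (2.24%) above it. The smallest adjusted p was 0.0648, for H3f3b. The test of linear ratios called 0 features as well, with 507 above and 488 below the sum at an unadjusted p of 0.05. By contrast, the same fit called 860 features (4.65%) for brain death alone, 135 (0.731%) for transplantation alone and 2814 (15.2%) for both insults together against normal kidney.

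A miss of the threshold does not show that the insults added up, so the width of the interval matters. The 95% confidence interval of the interaction had a median half-width of 0.30 on the log2 scale. For 8862 of the 9653 named genes (91.8%) it lay wholly within a 2-fold departure from the sum in either direction, and for 7267 (75.3%) within a 1.5-fold departure. Over all features the shares were 86.9% and 69.1%. The point estimates leaned neither way over the whole table, with 50.8% of features below the sum and a median of -0.0026. Among named genes with a departure of more than 2-fold, 44 lay below the sum and 9 above it. Among unnamed probes the split was 64 below and 94 above.

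**Figure D1:**
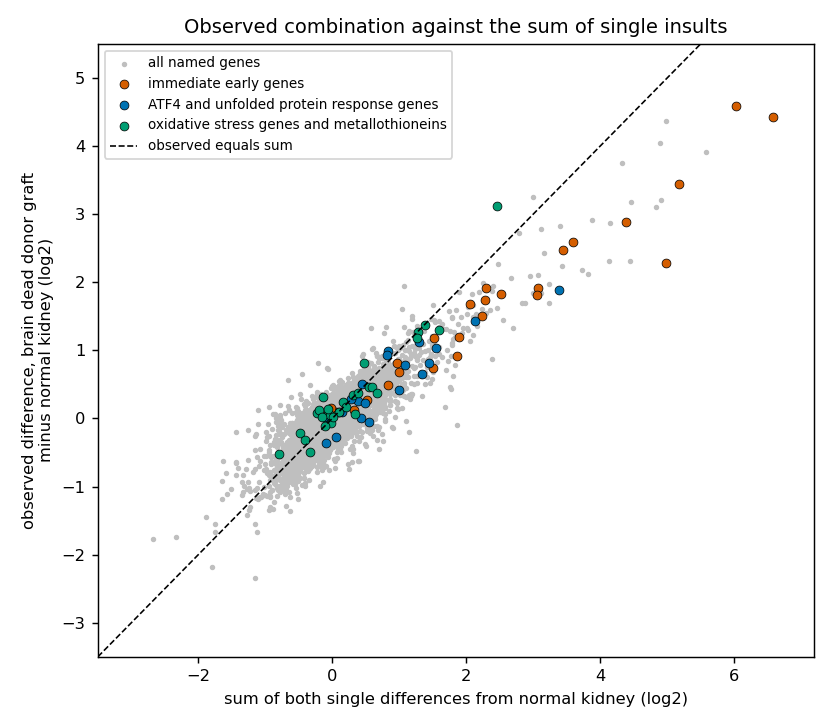
Observed log2 difference of brain dead donor grafts from normal kidney (vertical axis) against the sum of both single log2 differences (horizontal axis), with 1 grey point for each named gene, 3 gene lists in colour and the line of equality dashed. Genes with a sum near 0 scatter about the line. Atf3, Nfkbia and H3f3b, with a large positive sum, lie below it, and Hmox1 lies above it. The sum shares normal, brain dead and living donor arrays with the departure from the line, so an error that raises the sum lowers the departure.

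The 10 named genes with the smallest p below the sum were H3f3b, Nfkbia, Ppp1r15a, Hspa1a, Herpud1, Fndc3a, Atf4, Ddit3, Lrrk1 and Ifrd1. They are given as a description, since none passed the test. All except Fndc3a, Ddit3 and Lrrk1 rose after each insult alone. Promoters of the 3 that lead the order are shown, so that their start regions can be compared; all 300 bases come from RefSeq (GRCr8), from 250 before to 50 after the start site, and capitals mark matches to the motifs searched. H3f3b lies at chr10:101757587-101757886 on the minus strand, Nfkbia at chr6:78597023-78597322 on the minus strand and Ppp1r15a at chr1:105139547-105139846 on the minus strand.
H3f3b: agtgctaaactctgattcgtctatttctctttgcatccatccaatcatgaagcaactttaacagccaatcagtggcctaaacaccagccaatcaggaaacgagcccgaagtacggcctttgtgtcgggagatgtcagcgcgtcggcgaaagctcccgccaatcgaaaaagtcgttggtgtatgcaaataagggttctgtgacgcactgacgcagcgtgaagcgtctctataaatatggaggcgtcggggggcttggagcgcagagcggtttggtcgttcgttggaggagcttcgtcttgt
Nfkbia: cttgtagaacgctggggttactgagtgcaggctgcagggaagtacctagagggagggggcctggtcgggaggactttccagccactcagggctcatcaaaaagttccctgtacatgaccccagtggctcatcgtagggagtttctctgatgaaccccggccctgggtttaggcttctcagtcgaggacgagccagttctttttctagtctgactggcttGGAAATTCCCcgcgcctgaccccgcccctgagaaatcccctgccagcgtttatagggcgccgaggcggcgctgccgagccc
Ppp1r15a: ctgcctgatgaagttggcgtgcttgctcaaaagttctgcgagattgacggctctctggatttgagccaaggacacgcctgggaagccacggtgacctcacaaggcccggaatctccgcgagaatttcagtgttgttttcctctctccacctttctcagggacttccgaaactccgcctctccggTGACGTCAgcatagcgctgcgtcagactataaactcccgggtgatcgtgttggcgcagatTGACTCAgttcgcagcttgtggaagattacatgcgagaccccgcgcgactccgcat
Motifs were chosen after these genes were known and were searched on both strands. The NF-kB motif (GGGA, any 2 bases, then TTCC) occurred in the Nfkbia promoter from -31 to -22 relative to the start site, as GGAAATTCCC, and in 1.29% of the 27457 promoters of the table. Ppp1r15a held a cAMP response element, TGACGTCA, from -66 to -59 and an AP-1 motif (TGANTCA) from -6 to 1, as TGACTCA; these letters occurred in 1.91% and 7.33% of promoters. H3f3b held none of the 6 motifs searched, which also covered the heat shock element GAANNTTC (8.34% of promoters), an ER stress response element (0.0765%) and the CArG box (1.64%). The CArG box was in 1 of the 10 promoters below the sum and in 1 of the 10 above it. In the forms searched, the heat shock element and the ER stress response element were in none of either 10. Other forms or spacings of either element were not searched, so their absence is not shown. A match is a stretch of letters, not a measured binding site.

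H3f3b encodes the replacement histone H3.3, which is placed in active chromatin outside replication. Its levels were -0.08, 0.05 and -0.15 in normal kidneys, 1.42, 1.51 and 1.37 after brain death, 1.71, 1.44 and 1.88 in living donor grafts and 1.72, 1.45 and 1.74 in brain dead donor grafts. All 9 injured kidneys thus stood far above the 3 normal ones, and brain dead donor grafts overlapped living donor grafts. The sum of single differences would give a 9.38-fold rise, and the observed rise was 3.24-fold. The interaction was -1.53 ± 0.17 (SE; 95% confidence interval -1.90 to -1.16; adjusted p = 0.0648). It passed the threshold when living donor graft 24 was left out (adjusted p = 0.0207), when living donor graft 25 was left out (0.0346), under estimated array weights (0.0397) and when named genes alone were fitted (0.0209). Across all 12 omissions of an array its value stayed between -1.65 and -1.43, with adjusted p up to 0.353. H3f3b did not pass in limma fits with trended robust priors, on linear ratios or after quantile normalization. The smallest adjusted p of any feature was 0.537, 0.513 and 0.0601 in these fits.

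Nfkbia, a target of NF-kB whose product keeps that factor out of the nucleus, had levels of 0.33, 0.27 and 0.35 in normal kidneys, 1.89, 2.36 and 1.83 after brain death, 3.18, 2.42 and 2.60 in living donor grafts and 2.92, 2.53 and 2.44 in brain dead donor grafts. Grafts of both kinds overlapped, and both stood above the brain dead donor kidneys at 0 h. Against a sum of 17.6-fold, the observed rise was 4.98-fold, and the interaction was -1.82 ± 0.29 (SE; -2.47 to -1.17; adjusted p = 0.473).

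Ppp1r15a, the phosphatase subunit that ends the integrated stress response, had levels of 0.43, 0.25 and 0.50 in normal kidneys, 1.34, 1.94 and 1.42 after brain death, 2.70, 2.79 and 2.35 in living donor grafts and 2.07, 2.27 and 2.52 in brain dead donor grafts. The brain dead donor grafts again overlapped living donor grafts, with their mean 0.33 lower (adjusted p = 0.336). The interaction was -1.50 ± 0.25 (SE; adjusted p = 0.473), a sum of 10.5-fold against an observed 3.71-fold.

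Hspa1a encodes the inducible 70-kDa heat shock chaperone. Levels were 0.07, 0.09 and 0.12 in normal kidneys, 1.80, 0.97 and 1.09 after brain death, 3.85, 3.32 and 2.85 in living donor grafts and 2.22, 2.62 and 2.38 in brain dead donor grafts. Here every brain dead donor graft stood below every living donor graft, although every brain dead donor kidney at 0 h stood above every normal kidney. The direct difference between both kinds of graft was -0.93 (adjusted p = 0.0652), and the interaction was -2.12 ± 0.37 (SE; -2.95 to -1.30; adjusted p = 0.473).

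Ddit3, the C/EBP-family factor of the unresolved stress response, behaved in another manner, since brain death alone gave no called rise. It had levels of 0.06, -0.02 and -0.08 in normal kidneys, 0.25, 0.01 and 0.04 after brain death, 1.34, 1.30 and 1.01 in living donor grafts and 0.59, 0.58 and 0.75 in brain dead donor grafts. Brain dead donor grafts lay between both single insults without overlap, 0.57 below living donor grafts on the log2 scale (adjusted p = 0.0111). Features called in this contrast between grafts made up 6.76% of those tested, and 4.74% were lower in brain dead donor grafts. Ddit3 was chosen by its interaction, which includes this contrast, so the call is a description. The interaction of Ddit3 was -0.69 ± 0.14 (SE; adjusted p = 0.526). Atf4, which acts upstream of Ddit3, had the same interaction of -0.69 ± 0.14 with another pattern: 0.22, 0.22 and 0.14 in normal kidneys, 0.85, 1.20 and 1.19 after brain death, 1.52, 1.49 and 1.29 in living donor grafts and 1.61, 1.57 and 1.69 in brain dead donor grafts. For Atf4 all brain dead donor grafts stood above all living donor grafts, by a small margin, with a mean difference of 0.19 (adjusted p = 0.293).

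Herpud1, which takes part in the degradation of misfolded proteins of the endoplasmic reticulum, had an interaction of -0.62 ± 0.11 (SE), with an observed rise of 1.76-fold against a sum of 2.71-fold. Ifrd1, a transcriptional coregulator, reached 3.24-fold against a sum of 7.12-fold (interaction -1.14 ± 0.24). Fndc3a and Lrrk1 departed without a called rise after either insult. Fndc3a had levels of -0.61, -0.65 and -0.90 in brain dead donor grafts and of -0.27, -0.32 and -0.14 in living donor grafts, against -0.58 to -0.76 in normal kidneys. For Lrrk1, a kinase, the 3 brain dead donor grafts at -0.25, -0.25 and -0.16 stood below all 9 other arrays, which ranged from 0.06 to 0.52.

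**Figure D2:**
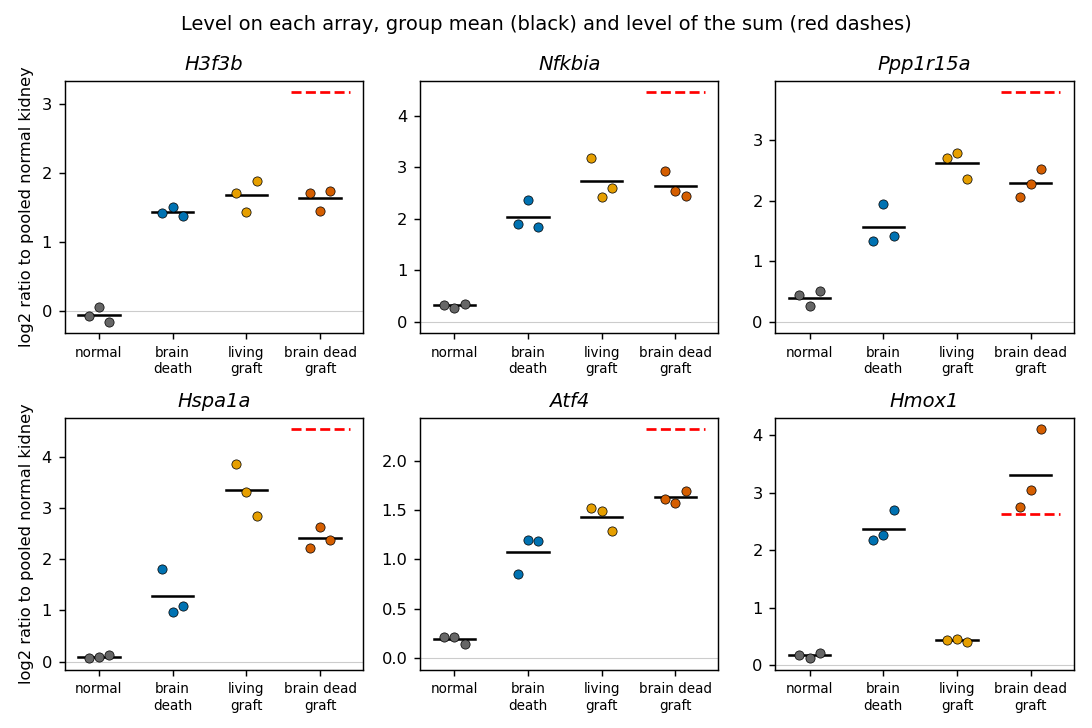
Log2 ratio to the normal kidney mixture on each array for leading genes of the interaction, with points for the 12 arrays in 4 groups, a black bar for the group mean and a red dashed line for the level that the sum of both single differences gives. For H3f3b the brain dead donor grafts sit between 1.45 and 1.74, at the level of the living donor grafts and below the sum at 3.17.

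A set of 48 features, 35 of them named genes, rose after brain death alone and after transplantation alone, and 10 features fell after both (2.39% of all features fell after brain death alone and 0.189% after transplantation alone); none was called in opposite directions. The rising set had a median interaction of -0.73, from -2.30 to -0.081, so all 48 lay below the sum. Its median sum was 2.20 and its median observed difference 1.47. All 3 brain dead donor grafts were below the sum in 46 of the 48, against 23.7% of all features. This set was chosen on differences that share the normal, brain dead and living donor arrays with the interaction: an array that by error made a single difference large also made the interaction low. These values are therefore a description of the set and carry no test. The same holds for the 10 falling features, all of which lay above the sum with a median interaction of 0.53; the 3 named were Simc1 (0.47), Igsf10 (0.42) and Fmo4 (0.25).

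Set against the single insults themselves, the grafts of the rising set went beyond both insults in 34 of 48 features by their means, lay between them in 12 and below both in 2. Over all 18478 features, grafts stood above both in 6723, between them in 5476 and below both in 6263. The set was chosen on the single differences, so these counts also carry no test. Of the 48 features, 2 were called above brain dead donor kidneys at 0 h: Klf6, by 1.53 (adjusted p = 0.0339), and Tgif1, by 0.65 (adjusted p = 0.03). That contrast called 0.0541% of all features, 0.0379% higher and 0.0162% lower. Against living donor grafts, 8 were called higher, among them Medag (0.97, adjusted p = 0.0224), Chd1 (0.51, adjusted p = 0.00866), Ackr3 (0.49, adjusted p = 0.0387) and Clpx (0.24, adjusted p = 0.0482). Over all features, 2.02% were called higher there. Tgif1, a homeobox repressor in TGF-beta signalling, and Anxa1, the anti-inflammatory annexin, came closest to the sum, with interactions of -0.081 ± 0.11 and -0.17 ± 0.20 (SE).

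Other members of the rising set cover transcription factors, feedback regulators and vascular mediators. Atf3, a stress-induced repressor, had levels of -0.21, -0.52 and -0.02 in normal kidneys, 2.29, 2.24 and 0.92 after brain death, 4.55, 4.55 and 3.72 in living donor grafts and 4.52, 3.65 and 4.35 in brain dead donor grafts. Both kinds of graft overlapped, and the interaction was -2.16 ± 0.55 (SE; adjusted p = 0.54). Cebpd, an acute phase factor, had levels of 0.39, 0.06 and 0.47 in normal kidneys, 3.32, 2.53 and 1.84 after brain death, 2.76, 2.46 and 2.25 in living donor grafts and 3.85, 3.22 and 3.39 in brain dead donor grafts. Brain dead donor grafts stood above all living donor grafts and overlapped the 0 h kidneys of brain dead donors. Its interaction was -1.27 ± 0.46; on the linear scale the sign turned, to 0.513 ± 2.36 ratio units. Rasd1, a glucocorticoid-responsive small GTPase, had an interaction of -1.70 ± 0.59 that moved to -1.08 when brain dead donor kidney 1, at 3.49 its highest array after brain death, was left out. Gadd45b, a stress sensor, had -1.15 ± 0.36, Pnrc1, a nuclear receptor coactivator, -1.27 ± 0.32, Rhob, an endosomal GTPase, -0.97 ± 0.24, Adm, the vasodilator adrenomedullin, -0.72 ± 0.20, and Edn1, the vasoconstrictor endothelin 1, -0.38 ± 0.24.

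To describe the same question with a choice that does not share its error with the interaction, features were also chosen on 2 averages: the donor difference averaged over kidneys at 0 h and grafts, and the transplantation difference averaged over both kinds of donor. Where spreads and group sizes are equal, estimates of these averages are uncorrelated with the interaction. This choice was made after the data had been seen. The donor average was called higher in 5.68% of features and the transplantation average in 1.06%, and 76 features, 54 of them named, were higher on both. Of the 76, 38 were also in the rising set of 48, and the others were not described apart. Among all 76, 67 (88.2%) lay below the sum, against 50.8% of all features, with a median interaction of -0.36. In 53 of the 76 all 3 brain dead donor grafts were below it, against 23.7% of all features. The medians of the 3 grafts taken singly were -0.34, -0.37 and -0.25. Leaving out each array in turn gave a share below the sum of 77.9% to 93.8%. The median moved to -0.19 without brain dead donor graft 21 and to -0.56 without living donor graft 24. With an array left out the group sizes differ, so the averages and the interaction are no longer uncorrelated and this range is a description. Areg, a ligand of the EGF receptor, was the exception furthest above the sum, with an interaction of 0.42. The donor average was called lower in 8.85% of features and the transplantation average in 0.709%. Of the 49 features lower on both, 30 lay below the sum with a median of -0.052, and the sign of that median turned in several settings.

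**Figure D3:**
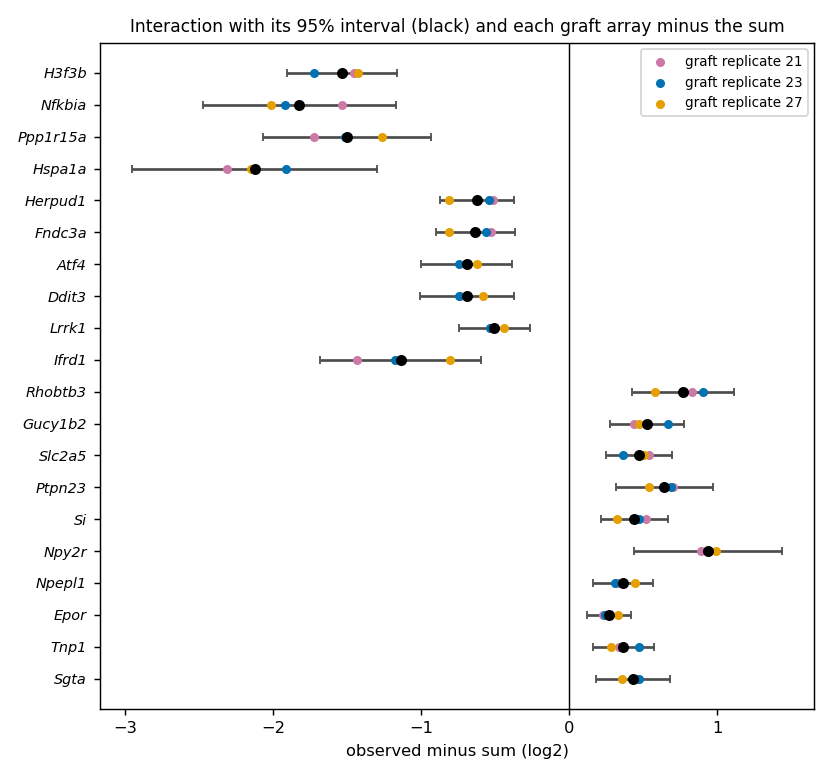
Interaction (log2, observed level of brain dead donor grafts minus the level of the sum) with its 95% confidence interval for the 10 named genes with the smallest p in each direction; coloured points are the 3 brain dead donor grafts, each minus the sum. Genes below the sum reach -2.12 (Hspa1a), and those above it reach 0.94 (Npy2r); no gene passed the test.

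The gene lists were read by their counts and medians, beside a median interaction of -0.0026 and 50.8% below the sum over all features. No list member passed the test of the interaction, and the counts at an unadjusted p of 0.05 below are set against 2.98% of all features below the sum and 2.24% above it. Among 26 immediate early genes, 23 lay below the sum, with the lowest median of all 23 lists at -0.69, and 9 had an unadjusted p under 0.05 below it. Transplantation alone raised 16 of the 26, against 0.541% of all features called higher there; brain death alone raised 5 (2.27% of all features); both together raised 21 (6.15%). Summed over the list, the mean level was 0.29 to 0.91 after brain death, 1.67 to 2.01 in living donor grafts and 1.48 to 1.87 in brain dead donor grafts, so that both kinds of graft overlapped.

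Within the immediate early genes, the orphan nuclear receptor Nr4a1 had levels of -0.63, 0.19 and 0.29 in normal kidneys, 1.11, 1.13 and 0.28 after brain death, 4.62, 4.25 and 3.85 in living donor grafts and 3.16, 3.69 and 3.32 in brain dead donor grafts. Its brain dead donor grafts lay below all living donor grafts, by a mean of 0.85 (adjusted p = 0.147), and the interaction was -1.74 ± 0.44 (SE; adjusted p = 0.54). Nr4a3 had the lowest estimate of any feature, -2.69 ± 0.87 (adjusted p = 0.875), with living donor grafts from 1.96 to 4.29. Klf4, a zinc finger factor, had -1.23 ± 0.33. Fos, the AP-1 subunit, and Egr1 were uncertain, with -1.43 ± 1.16 and -1.49 ± 0.81; for Fos, brain dead donor kidney 1 stood at 1.78 and the other 2 at -0.10 and -0.67. Myc stood at -0.37 ± 0.30, with all 3 brain dead donor grafts at 1.63 to 2.02 above all living donor grafts at 1.02 to 1.45. The 11 feedback genes of MAP kinase signalling had a median of -0.25, which moved to -0.059 without brain dead donor graft 21 and to -0.42 without brain dead donor kidney 3, and 9 of 11 lay below the sum. Rgs2, which dampens G protein signalling, had -0.61 ± 0.28, but its probes gave -0.97 and -0.25.

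Genes of Atf4 and the unfolded protein response showed the next lowest median, -0.27 over 22 genes, of which 16 lay below the sum and 8 had an unadjusted p under 0.05, all below. The median moved to -0.16 without brain dead donor kidney 1. Brain death raised 5 of the 22, transplantation 5 and both together 10. Over all features the shares called higher were 2.27%, 0.541% and 6.15%. Besides the 4 members among the leading genes (Ppp1r15a, Atf4, Ddit3 and Herpud1), Hsp90b1, a chaperone of the endoplasmic reticulum, had -0.59 ± 0.26 and Sesn2, a stress-induced regulator of mTOR signalling, -0.51 ± 0.17 (SE). Of 23 heat shock chaperones, 19 lay below the sum with a median of -0.17 (-0.089 without brain dead donor kidney 1), and 5 had an unadjusted p under 0.05 below it. Hspa4, a nucleotide exchange factor of the 70-kDa chaperones, fell by 0.52 after brain death (adjusted p = 0.0182) and stood 0.91 lower in brain dead donor grafts than in living donor grafts (adjusted p = 0.00163), with an interaction of -0.39 ± 0.13.

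Of 20 NF-kB targets and feedback genes, brain death raised 9, transplantation 1 (Nfkbia) and both together 11; over all features the shares called higher were 2.27%, 0.541% and 6.15%. Their median interaction was -0.24 (-0.14 without brain dead donor graft 21), and 17 of 20 lay below the sum. Birc3, an inhibitor of apoptosis, had levels of 3.75, 3.18 and 1.97 after brain death, 1.29, 1.44 and 0.67 in living donor grafts and 2.86, 2.27 and 3.07 in brain dead donor grafts, from -0.39 to -0.35 in normal kidneys. Brain dead donor grafts lay above living donor grafts and among the 0 h kidneys of brain dead donors. The interaction was -1.74 ± 0.56 (SE; adjusted p = 0.875). Map3k8, a kinase of the same pathway, had -1.55 ± 0.38.

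Of 24 cytokines and chemokines, 20 lay below the sum, with a median of -0.19 that moved to -0.057 without brain dead donor graft 23. Il1b, the central cytokine of innate immunity, had levels of 2.54, 2.90 and 3.31 after brain death, 1.03, 0.30 and 1.58 in living donor grafts and 3.06, 2.42 and 2.75 in brain dead donor grafts. The latter overlapped the brain dead donor kidneys at 0 h and stood above all living donor grafts, and the interaction was -1.28 ± 0.45. The chemokine Ccl2 (-0.61 ± 0.81) and the cytokine Il6 (-0.20 ± 0.82) had intervals that reached well beyond 2-fold on either side, -2.42 to 1.20 and -2.03 to 1.62. For Cxcl10, an interferon-induced chemokine, the interaction of -1.68 ± 0.99 moved to -0.98 without brain dead donor graft 23 and turned to 2.63 ± 5.53 ratio units on the linear scale.

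Among 18 genes of endothelial activation and coagulation, 11 lay below the sum and the median was -0.052 (-0.096 without brain dead donor graft 23 and -0.031 without living donor graft 25). Sele and Selp, the adhesion molecules that let leukocytes roll on endothelium, rose after brain death and were not called after transplantation. Their interactions were uncertain: Sele 0.27 ± 0.94 and Selp -0.58 ± 0.82 (SE), with intervals of -1.83 to 2.37 and -2.40 to 1.24. Icam1, which arrests leukocytes, had a narrower interval, with an interaction of -0.62 ± 0.23 (-1.14 to -0.10; adjusted p = 0.905). The 8 measured neutrophil genes had a median interaction of -0.23 (-0.12 without brain dead donor graft 21 and -0.39 without brain dead donor kidney 3), with mean levels of 0.53 to 1.05 after brain death, -0.11 to 0.0042 in living donor grafts and 0.02 to 0.63 in brain dead donor grafts. S100a9, a calcium-binding protein of neutrophils, was at 4.48, 3.07 and 2.84 after brain death and at 1.22, 1.98 and 3.16 in brain dead donor grafts, so that these groups overlapped, and its interaction was -1.69 ± 0.71 (SE; adjusted p = 0.94). The part of neutrophils in the inflammatory interactions was not tested.

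Genes of oxidative stress and metallothioneins were the largest list that did not lean below the sum: 13 of 29 lay below it, the median was 0.015 (0.0078 without normal kidney 3 to 0.074 without normal kidney 2), and the counts at an unadjusted p of 0.05 were 0 below and 2 above (limma, with 0 past the adjusted threshold). Transplantation alone raised 0 of the 29 at the adjusted threshold, against 0.541% of all features, and brain death raised 6, against 2.27%. A list of 29 is too short to set its 0 apart from the share of 0.541%. Hmox1, the heme oxygenase that breaks down heme, had levels of 0.18, 0.12 and 0.21 in normal kidneys, 2.17, 2.26 and 2.70 after brain death, 0.44, 0.46 and 0.40 in living donor grafts and 2.75, 3.04 and 4.10 in brain dead donor grafts. All brain dead donor grafts stood above every other array, and all 3 stood above the sum at 2.64. The interaction was 0.66 ± 0.40 (SE; -0.24 to 1.56; adjusted p = 0.944), with 0.60 and 0.72 on its separate probes. It moved to 0.26 when brain dead donor graft 27, the highest array, was left out. Gstp1, a glutathione transferase, had levels of -0.38, 0.02 and -0.28 in normal kidneys, -0.25, -0.12 and -0.03 after brain death, -0.41, -0.42 and -0.45 in living donor grafts and 0.07, 0.09 and 0.13 in brain dead donor grafts. The last group stood above all other arrays, with an interaction of 0.45 ± 0.13 (SE; adjusted p = 0.806). Nqo1, a quinone reductase, had 0.35 ± 0.16; its brain dead donor grafts stood 0.75 above living donor grafts (adjusted p = 0.00728).

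**Figure D4:**
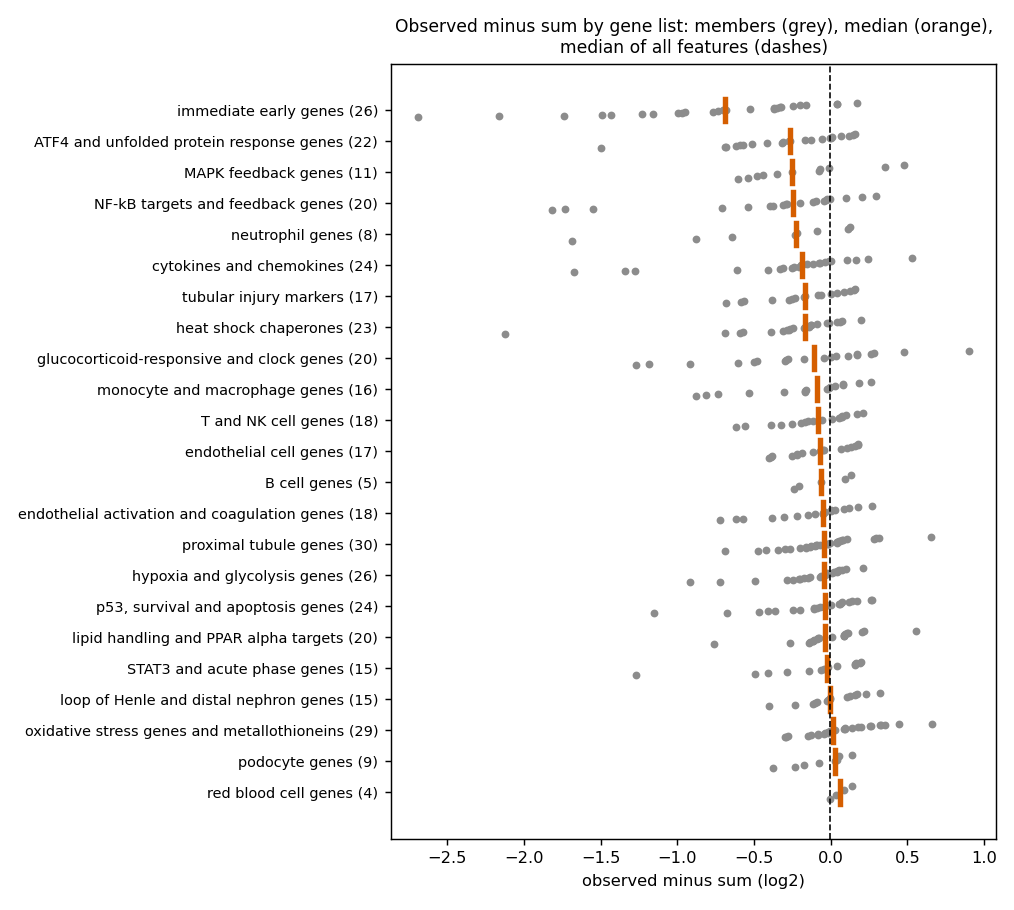
Interaction (log2) of each measured member of the gene lists as a point, with the median of each list as an orange bar and the median of all features as a dashed line; the number of members stands beside each list. Immediate early genes lie furthest below the sum, with a median of -0.69, and oxidative stress genes lie about the line, with a median of 0.015.

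The other response lists lay closer to the sum. The 26 hypoxia and glycolysis genes had a median of -0.045 (-0.017 without living donor graft 25) with 17 below the sum, and Bhlhe40, a clock and hypoxia repressor, led them with -0.92 ± 0.22 (SE). The 24 genes of p53, survival and apoptosis had a median of -0.041 (-0.011 without normal kidney 1) with 15 below, and Gadd45a, a p53 target, had -0.68 ± 0.32 (-0.37 without brain dead donor kidney 1). For 20 glucocorticoid-responsive and clock genes the median was -0.11, which moved to -0.0058 without normal kidney 2 and to -0.22 without normal kidney 1, and 11 lay below. Sgk1, a kinase that acts on sodium transport, had -1.19 ± 0.60, with normal kidneys at 0.26, -0.88 and -0.80. The 15 STAT3 and acute phase genes had a median of -0.026 with 9 below, which kept its sign in 7 of 12 omissions (-0.14 without brain dead donor kidney 3 to 0.045 without normal kidney 1). Pim3, a kinase of that program, had -0.41 ± 0.15. The 20 lipid handling genes had a median of -0.035 with 10 below, and that sign held in 4 of 12 omissions of an array (-0.081 to 0.044, the latter without brain dead donor kidney 1). Among them Plin2, which coats lipid droplets, had 0.56 ± 0.35 (0.22 without brain dead donor graft 27) and Ucp3, a mitochondrial carrier, -0.76 ± 0.27.

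Among 17 tubular injury markers, 12 lay below the sum, 4 of them at an unadjusted p under 0.05, and the median was -0.17 (-0.052 without brain dead donor kidney 1 and -0.29 without brain dead donor graft 27). Tubb6, a beta tubulin, had -0.68 ± 0.22 (SE), but its probes gave -1.28 and -0.089. Igfbp1, an insulin-like growth factor binding protein, had levels of 2.42, 1.98 and 1.96 after brain death, 1.02, 1.44 and 0.70 in living donor grafts and 2.31, 2.61 and 3.24 in brain dead donor grafts. Brain dead donor grafts stood above all living donor grafts and overlapped kidneys of brain dead donors at 0 h. The interaction was -0.57 ± 0.35 (-0.36 without brain dead donor graft 21), and it turned to 1.24 ± 1.37 ratio units on the linear scale.

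Genes that mark the cells of the kidney had medians near 0. Medians were -0.045 for 30 proximal tubule genes, -0.0052 for 15 genes of the loop of Henle and distal nephron, 0.025 for 9 podocyte genes and -0.069 for 17 endothelial cell genes. The first 2 turned to 0.024 and 0.087 without brain dead donor graft 27, the podocyte median to -0.083 without graft 21, and the endothelial one moved to -0.14 without graft 23. Slc4a4, the basolateral bicarbonate cotransporter of the proximal tubule, rose by 0.84 after brain death (adjusted p = 0.0433) and had an interaction of -0.69 ± 0.28 (SE), with normal kidneys at -0.13, -0.96 and -0.11; without normal kidney 2 it was -0.41. Casr, the calcium-sensing receptor, had 0.32 ± 0.22, Podxl of podocytes -0.18 ± 0.20, Lrp2, the endocytic receptor megalin, -0.087 ± 0.17, Ramp2 -0.40 ± 0.28 and the gap junction protein Gja5 -0.39 ± 0.29. Over omissions of single arrays these moved by more than 1.5 times, Podxl to -0.0062 and Lrp2 to 0.049 without brain dead donor graft 27, Ramp2 to -0.24 without normal kidney 2, Casr to 0.21 and Gja5 to -0.21 without brain dead donor kidney 1. Gja5 fell by 0.96 after brain death (adjusted p = 0.0301) and by 1.55 with both insults (adjusted p = 0.00143), where 9.08% of all features fell. Among markers of blood cells, the 16 monocyte and macrophage genes had a median of -0.093, the 18 T and NK cell genes -0.085, the 5 B cell genes -0.063 and the 4 red blood cell genes 0.057. The monocyte median moved to -0.024 without brain dead donor kidney 1, the T and NK cell median to 0.033 without brain dead donor graft 21 and the B cell median to 0.00043 without normal kidney 1. With both insults together, 2 of the 16 monocyte and macrophage genes and 1 of the 18 T and NK cell genes were called, against 15.2% of all features. The B cell and red blood cell lists had 0 called and are too short to set against that share.

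The 10 named genes with the smallest p above the sum were Rhobtb3, Gucy1b2, Slc2a5, Ptpn23, Si, Npy2r, Npepl1, Epor, Tnp1 and Sgta, and none passed the test. This choice favours genes whose brain dead donor grafts stand above living donor grafts and above brain dead donor kidneys at 0 h. Such separations, and the p-values of the contrast between grafts, are therefore descriptions. Their interactions, from 0.27 (Epor, the erythropoietin receptor) to 0.94 (Npy2r, a neuropeptide Y receptor), overlapped in size with those of the 10 leading genes below the sum, which ran from -0.50 to -2.12. Rhobtb3 had levels of -0.26, -0.14 and -0.44 in normal kidneys, -0.56, -0.31 and -0.60 after brain death, -0.73, -0.77 and -0.66 in living donor grafts and -0.10, -0.03 and -0.35 in brain dead donor grafts. Its brain dead donor grafts overlapped normal kidneys and stood 0.56 above living donor grafts (adjusted p = 0.0163). The interaction was 0.77 ± 0.15 (SE; 0.43 to 1.12; adjusted p = 0.473), but its probes gave 1.35 and 0.20.

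Npy2r had levels of -0.18, -0.18 and -0.71 in normal kidneys, -0.78, -0.42 and -0.86 after brain death, -0.67, -0.80 and -0.49 in living donor grafts and -0.09, -0.04 and 0.01 in brain dead donor grafts. All 3 brain dead donor grafts stood above every other array, and the interaction was 0.94 ± 0.22 (SE; adjusted p = 0.536). The share of all features with such a separation was not counted. Slc2a5, the fructose transporter, was at 0.64, 0.47 and 0.61 in brain dead donor grafts and between -0.04 and 0.30 on all other arrays. Both insults together raised it by 0.49 (adjusted p = 0.00229), while brain death alone gave 0.12 and transplantation alone -0.11, with an interaction of 0.47 ± 0.10. Over all features, 6.15% were called higher with both insults together. Gucy1b2, a subunit of the soluble guanylate cyclase, was at 0.35, 0.57 and 0.38 in brain dead donor grafts and at -0.22 to 0.19 elsewhere, and rose by 0.37 with both insults (adjusted p = 0.0133). Npepl1, an aminopeptidase, was at 0.14 to 0.28 in brain dead donor grafts and at -0.25 to -0.05 on all other arrays, and rose by 0.35 (adjusted p = 0.00608).

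What counts as additive depends on the scale, so the excess was also computed on linear ratios, where the sum adds the differences of the ratios. Of the 61 chosen genes, 57 kept the sign of their interaction; Cebpd, Tmem252, Cxcl10 and Igfbp1 turned to above the sum. H3f3b had a linear excess of -1.84 ± 0.333 ratio units (SE), Nfkbia of -3.47 ± 1.32 and Hspa1a of -6.64 ± 2.07, while Atf3, at -4.36 ± 4.42, could not be told from the sum at that precision.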

How the data were processed

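Gene expression was measured on 12 Agilent 2-channel rat oligonucleotide arrays, 4 groups of 3 by sample title; a description shared by all arrays, which contradicts 9 titles, was not used. Per the design text, the authors extracted spots with Agilent Feature Extraction, applied lowess normalization to each array in GeneSpring and used the ratio of sample (Cy3) over reference (Cy5). The deposited table was taken to hold log10 ratios, since they centre on 0 and end at 2 on either side; the direction rests on the design text, and no source used here names the program that wrote them. They were turned into deposited log2 ratios by a constant factor, with array medians from 0 to 0.0099 and no further normalization.

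Of 21575 probes, 12750 had a single gene symbol, 5 several and 8820 none; 2266 genes with several probes were averaged. Symbols came from the platform annotation, of which 12720 of 12755 Entrez IDs were in RefSeq (GRCr8). Exact zeros (1817 values, 0.702%) were kept. limma 3.58.1 in R 4.3.3 was fitted to all 12 arrays (8 residual degrees of freedom, empirical Bayes prior of 1.89), with Benjamini-Hochberg adjustment over 18478 features and a threshold of 0.05, and was tested on simulated data. No intensities, slide or scan dates were used here, so background and batches were not tested, and 3 arrays a group limit the precision. Whether replicates come from separate animals is stated only as individual grafts, so a p-value measures no more than the spread among these arrays, which may be technical. No source used here says if the normal group and the reference mixture share kidneys.

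Members, the 23 gene lists (417 of 520 entries measured) and the rule for named genes were chosen with earlier results of these data known. The rule took the 10 named genes with the smallest interaction p in each direction and those called the same way in both single insults (12 highest, 6 lowest). In each list it took the 2 called members with the largest interaction. Others named were chosen after their values were seen. A choice by the interaction favours large differences between both kinds of graft, so p-values of that contrast are descriptions for these genes. Alternatives were array weights, quantile normalization, single probes, trended robust priors, zeros as missing, named genes alone, the replicate block, the linear scale and each array left out. Replicate numbers 1 to 3 of normal and brain dead donor kidneys gave correlations of deviations of 0.328, 0.100 and 0.0337, so they were not taken to pair samples.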

Additional observations from a re-analysis of the deposited data

Results flagged for a closer look

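For 7 genes of the leading order, every array of one pair of groups moved one way and every array of the other pair the opposite way. The interaction that compares these differences did not pass the adjusted threshold for any of them, and the opposite direction was not tested on its own. All 7 were chosen for a small interaction p, which favours such reversals, so their number carries no test. The share of all features with the same reversal was not counted. Hspa1a, the inducible heat shock chaperone, was higher in all brain dead donor kidneys than in normal ones at 0 h and lower in all brain dead donor grafts than in living donor grafts at 1 h, with a difference of -2.1234. Fndc3a had the same reversal between donors and also between transplantation of living and of brain dead donor kidneys, with -0.6331. Si, the sucrase-isomaltase (0.4413), and Tnp1, a spermatid nuclear protein (0.3657), reversed in the upward direction in both respects, and Sgta, a cochaperone (0.4324), between donors. Gucy1b2 (0.5279) and Ptpn23, a phosphatase-like protein of endosomal sorting (0.6448), were lower in living donor grafts than in normal kidneys and higher in brain dead donor grafts than in brain dead donor kidneys at 0 h.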

How the results depend on the processing

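The count of 0 for the interaction became 3 under array weights and 1 with named genes alone, and ranged from 0 to 4 over omissions of single arrays (1 without living donor graft 22 or 24, 4 without 25). Quantile normalization, trended robust priors, zeros as missing, single probes and the linear scale left it at 0. Brain death alone went from 860 calls to 2852 under array weights and to 165 to 1186 over single omissions (165 without brain dead donor kidney 2). Transplantation alone went from 135 to 483 under array weights, 86 with named genes alone (70 higher and 5 lower among the same genes when all features were fitted) and 33 to 210 over omissions (33 without living donor graft 22). Both insults together went from 2814 to 1590 with named genes alone (698 higher and 812 lower among them when all were fitted) and 1769 to 3049 over omissions (1769 without normal kidney 1). With named genes alone fewer features were tested. The cause of the other moves was not tested.

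The random replicate block left the interaction at 0, with 774, 136 and 2815 calls in the other comparisons. A fixed replicate block for brain death in a fit of 2 groups gave 2 calls, against 350 in that fit without it.

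Signs turned on the linear scale for Cebpd (0.513), Tmem252 (0.140), Cxcl10 (2.63) and Igfbp1 (1.24), under quantile normalization for Lrp2 (0.0783) and Podxl (9.6e-05), and under array weights for Cd14 (0.0138). Of 732 values with an array left out, 726 kept sign and side of the threshold and 4 turned: Lrp2 (range -0.167 to 0.0493) and Cd14 (-0.108 to 0.0954). The median of features lower on both averages turned to 0.125 under quantile normalization and ranged from -0.228 to 0.113 over omissions (above 0 without brain dead donor kidney 1, normal kidney 1 or living donor graft 25). That of features higher on both averages was -0.69 under quantile normalization (35 of 35 below the sum) and -0.24 under array weights (140 of 173).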
